A study of Mus musculus with 2 samples.

Results

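The glutathione and aldehyde detoxification genes of the mouse were followed across the cell classes of back skin and preputial gland (PG). They were taken as every gene of the deposited gene lists whose symbol names a glutathione S-transferase (*Gst*), a microsomal glutathione S-transferase (*Mgst*), a glutathione peroxidase (*Gpx*) or an aldehyde dehydrogenase (*Aldh*), without pseudogenes. The *Gst* genes are called cytosolic transferases here, although *Gstk1* among them is of mitochondria and peroxisomes. This gave 54 of 32285 genes, made up of 22 *Gst*, 3 *Mgst*, 8 *Gpx* and 21 *Aldh* genes. The rule reads the symbol alone, although this set of genes was chosen for study with earlier results of these data known.

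Male wild type C57BL/6 mice aged 52 weeks gave both tissues, with no treatment and no transgene. Back skin was sampled as 6 mm biopsies and PG, the paired scent glands of male rodents that resemble large sebaceous glands, as whole glands. Cells of 3 mice were pooled per tissue, so each tissue is 1 droplet-based single-cell RNA library and there are no replicates. No test between tissues or classes was therefore possible, tissue and library cannot be told apart, and every interval given here covers counting error only.

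Glutathione S-transferases join the tripeptide glutathione to reactive, mostly oily compounds, and the microsomal members do so from within membranes. Glutathione peroxidases use glutathione to reduce hydrogen peroxide and lipid peroxides. Aldehyde dehydrogenases oxidise aldehydes to acids, among them the aldehydes left by lipid peroxidation, the fatty aldehydes of lipid turnover and retinaldehyde, the precursor of retinoic acid. Sebocytes, the cells that fill with lipid and burst to make sebum, contain large amounts of lipid that can be oxidised.

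Many genes of glutathione metabolism are known targets of the transcription factor Nfe2l2 (Nrf2), which binds the antioxidant response element. The core of this element, TGACNNNGC, was searched on both strands in the promoter windows of RefSeq (build GRCm38.p6, 250 bases before to 50 after each start), and the sequence around it is shown for the 5 genes that hold it and whose levels are described here. Positions count from the RefSeq start of the window. The *Mgst1* and *Gstm5* stretches are shorter because they overlap annotated exons, and the *Mgst1* core lies inside the gene as annotated below, where a start further upstream is listed. Capitals mark the core or its reverse complement.
*Gsta3*, chr1:21240424-21240512, plus strand, core from position -121: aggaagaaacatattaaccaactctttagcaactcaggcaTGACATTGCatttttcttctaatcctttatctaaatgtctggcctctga
*Aldh9a1*, chr1:167349864-167349952, plus strand, core from position -87: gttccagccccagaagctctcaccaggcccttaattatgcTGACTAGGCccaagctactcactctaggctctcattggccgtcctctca
*Aldh1a2*, chr9:71215637-71215725, plus strand, core from position -112: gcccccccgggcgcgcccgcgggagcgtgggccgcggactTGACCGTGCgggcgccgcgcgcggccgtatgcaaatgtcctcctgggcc
*Mgst1*, chr6:138140461-138140489, plus strand, reverse complement from position -56: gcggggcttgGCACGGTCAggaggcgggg
*Gstm5*, chr3:107895802-107895830, plus strand, core from position -42: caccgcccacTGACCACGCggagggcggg
A promoter window was found for 46 of the 54 genes, 60 windows in all. The core lay in 6 of these windows (10%), against 12.4% of all 32851 promoter windows. The nuclear receptor half-site AGGTCA, also searched on both strands, lay in 7 windows (11.7%) against 16.3% of all. The DR1 element is bound by Pparg, the factor that drives sebocyte differentiation. The letters of DR1 lay in 0 windows against 13 of all 32851 (0.0396%), too rare for 60 windows to show a difference. A match of these letters is a description of the sequence, not a bound site.

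The libraries held 8899 skin cells with 27407186 UMIs (unique molecular identifiers, 1 per captured transcript) and 4699 PG cells with 15270076 UMIs. Each cell was given to a class by the summed level of that class's marker genes, and levels are UMIs per 1000000 UMIs of the class (CPM). UMIs are counted at the transcript's 3′ end, so CPM is not divided by gene length. Sebocytes numbered 745 in PG (4100511 UMIs) and 40 in skin (183522 UMIs), with a median of 5265 and 4065 UMIs per cell against 2709.5 and 2333.5 in basal keratinocytes, and 122 and 9 cells lay near the sebocyte limit (12 to 18 per 10000 UMIs, limit 15). The summed sebocyte markers had a median of 41.0 per 10000 UMIs in PG sebocytes and 36.3 in skin sebocytes, against 4.34 in PG basal keratinocytes and 0 in skin basal keratinocytes. In PG basal cells 14 of the 15 sebocyte markers had UMIs, 613 CPM together with *Awat1* at 0, and in skin basal cells 12 did, 135 CPM together with *Awat1*, *Elovl3* and *Dgat2l6* at 0. Skin sebocytes held 8 of 12 hair matrix markers at 174 CPM together, PG sebocytes 4 of 12 at 4.15 CPM. These markers, and the class called hair matrix here, cover the hair matrix and inner root sheath of the follicle together. The part of these other classes' transcripts in the values below was not tested. The lists of possible barcodes differed, with 6794880 entries for skin and 737280 for PG, and no kept barcode was shared. The labels name 1 kit for both tissues, but lists of different length go with different kit chemistries, so tissue, library and chemistry cannot be told apart in any ratio of PG to skin given here.

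Summed over all 54 genes, PG sebocytes carried the most transcripts of the family, 12209 CPM, and *Mgst1* alone made 59.1% of that sum. Skin sebocytes carried 5427 CPM, with 52.3% from *Mgst1*. PG basal keratinocytes carried 5648 CPM and skin basal keratinocytes 1638 CPM. PG fibroblasts held 5791 CPM and skin fibroblasts 4138 CPM, and there the secreted peroxidase gene *Gpx3* was the leading member, at 15.3% and 33.1% of the sum. The other skin classes ran from 623 CPM in T cells to 2164 CPM in skeletal muscle cells, where *Gpx4* made 53.4%. The other PG classes ran from 2734 CPM in endothelial cells to 4457 CPM in the keratinocytes of the upper follicle and duct. In macrophages and dendritic cells of PG the sum was 3130 CPM, and 50.7% of it was *Gpx1*.

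**Figure D1:**
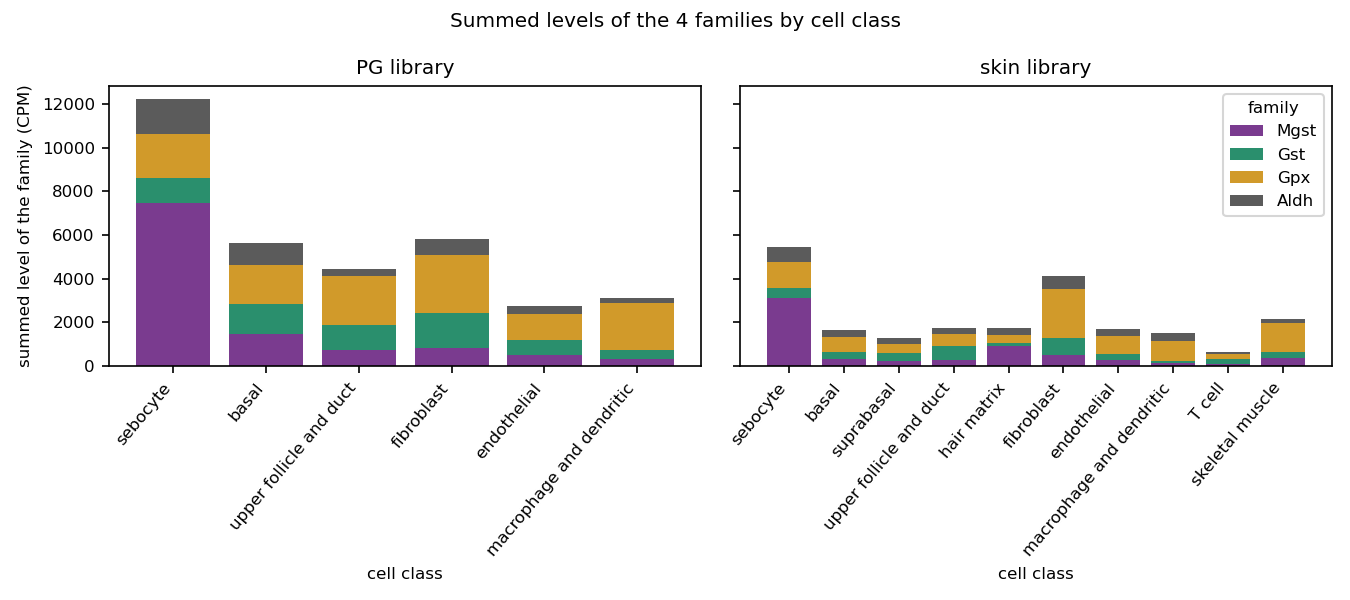
Summed level (CPM, vertical axis) of the microsomal glutathione S-transferase, cytosolic glutathione S-transferase, glutathione peroxidase and aldehyde dehydrogenase genes, stacked, for each class of at least 40 cells in PG and skin. The PG sebocyte bar is the highest at 12209 CPM, and its microsomal transferase portion, 7466 CPM, is larger than that of any other class shown.

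The sum was made up of different families in sebocytes and basal cells. Microsomal transferases gave 7466 CPM in PG sebocytes against 1443 CPM in PG basal cells, and 3111 CPM in skin sebocytes against 321 CPM in skin basal cells. Cytosolic transferases gave 1159 CPM in PG sebocytes against 1408 CPM in PG basal cells, and 441 against 305 CPM in skin. Peroxidases gave 1975 against 1757 CPM in PG and 1221 against 699 CPM in skin. Aldehyde dehydrogenases gave 1609 against 1039 CPM in PG and 654 against 313 CPM in skin. The microsomal family thus showed the widest gap between sebocytes and basal cells in either library. This gap was mostly that of *Mgst1*, with 7213 CPM in PG sebocytes and 2839 CPM in skin sebocytes. *Mgst2* had 85.4 against 42.8 CPM in PG and 65.4 against 16.3 CPM in skin. *Mgst3* showed no such gap, with 167 against 169 CPM in PG and 207 against 229 CPM in skin.

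Of the 54 genes, 40 reached 20 CPM in a class of at least 40 cells, namely 15 *Gst*, all 3 *Mgst*, 6 *Gpx* and 16 *Aldh* genes. A further 11 had UMIs but stayed below that level in every such class (*Aldh1b1*, *Aldh1l2*, *Aldh3b3*, *Aldh5a1*, *Aldh8a1*, *Gsta1*, *Gstm3*, *Gstm4*, *Gstm6*, *Gstm7* and *Gsto2*). In the kept cells 3 genes, *Gpx5*, *Gpx6* and *Gstt4*, had no UMI. Ranges and highest levels below are over the classes of at least 40 cells, except where a smaller class is named. The family is clustered in the genome. On chromosome 19 lie 11 of the 54 genes, where *Aldh3b1*, *Aldh3b3*, *Aldh3b2*, *Gstp1*, *Gstp2* and *Gstp3* come in this order between 3913491 and 4059569. On chromosome 3 lie 8, 7 of them the mu-class *Gstm* genes (coordinates of build mm10). Near-identical copies limit 4 genes. *Gstp1* and *Gstp2* shared 75.2% of the 50-base words in their last 500 bases. *Gsta1* shared 90.0% and *Gsta2* 49.9% with each other or with 2 neighbouring gene models. The counts of these 4 genes are uncertain, and how reads from shared stretches were counted was not tested.

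**Figure D2:**
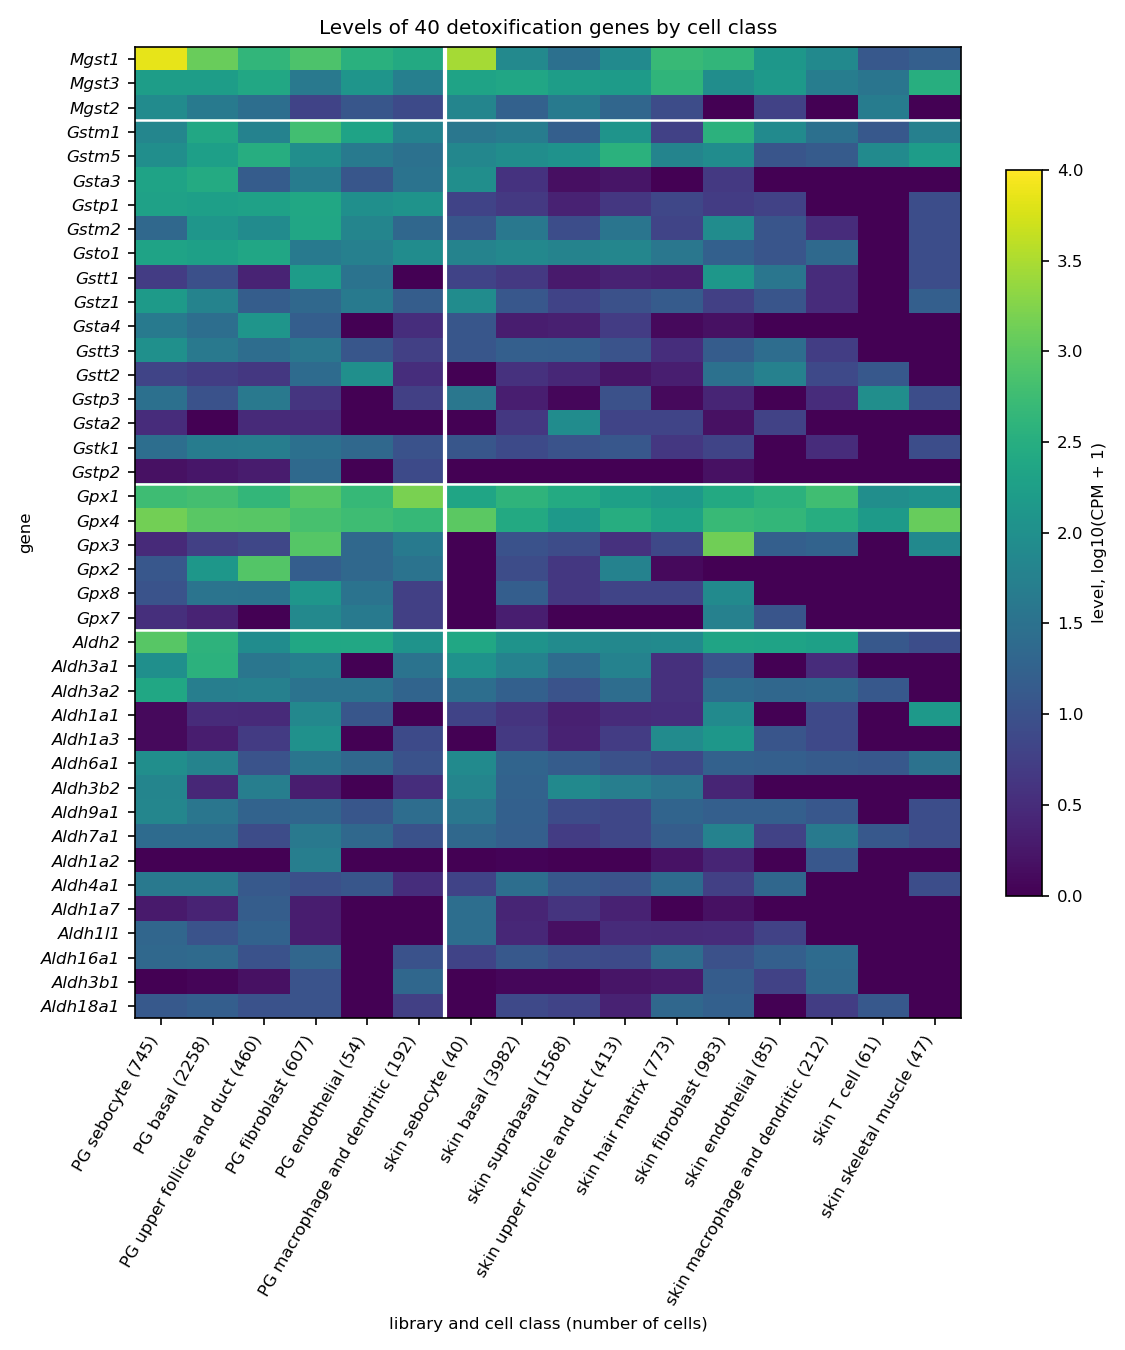
Level of the 40 genes that reached 20 CPM (rows, grouped by family) in each class of at least 40 cells (columns, PG and skin), coloured by log10(CPM + 1). *Mgst1* is the highest in the sebocyte columns, *Gpx3* and *Aldh1a3* stand out in both fibroblast columns, and the *Gstp1* row is coloured across the PG classes and near 0 across the skin classes.

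Among the microsomal transferases, *Mgst1* encodes an enzyme of the endoplasmic reticulum and outer mitochondrial membrane that also reduces lipid peroxides. It lies at chr6:138140316-138156755 on the plus strand. Its level was 7213 CPM (95% interval 7132 to 7296) in PG sebocytes and 2839 CPM (2600 to 3093) in skin sebocytes. In basal keratinocytes it was 1232 CPM (1205 to 1259) in PG and 75.8 CPM (70.7 to 81.1) in skin. Sebocytes were thus highest in both libraries, and the intervals of sebocytes and basal cells did not overlap in either. The next highest levels were 765 CPM in PG fibroblasts, 492 CPM in hair matrix cells of skin, 430 CPM in the upper follicle and duct of PG and 423 CPM in skin fibroblasts, and the lowest was 11.8 CPM in skin T cells. Free RNA, read from barcodes with 10 to 100 UMIs, held *Mgst1* at 2885 CPM in PG and 187 CPM in skin. In cells thinned to 1000 UMIs, 97.0% of PG sebocytes and 72.5% of skin sebocytes had an *Mgst1* UMI (99.46% and 95% unthinned). Macrophages and dendritic cells, with a median of 1955.5 UMIs in PG and 1932 in skin, had one in 16.1% and 7.55% of thinned cells (27.1% and 13.7% unthinned). The sebocyte shares lay well above the shares of this class. How much of the *Mgst1* in macrophages and dendritic cells came from free RNA was not tested.

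*Mgst3* showed a different order. It was at 412 CPM in hair matrix cells and 324 CPM in skeletal muscle cells of skin, and at 246 CPM in the upper follicle and duct of PG. In sebocytes it had 167 CPM in PG and 207 CPM in skin, next to 169 CPM and 229 CPM in the basal cells of the same libraries. *Mgst2*, whose product can make leukotriene C4, was low throughout, with its highest levels at 85.4 CPM in PG sebocytes, 65.4 CPM in skin sebocytes and 47.0 CPM in skin T cells.

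Among the cytosolic transferases, *Gstp1* of the pi class (chr19:4035407-4037985, minus strand) separated the libraries more than the classes. It lay between 98.4 CPM in endothelial cells and 244 CPM in fibroblasts over the 6 PG classes, and between 0 and 7.70 CPM over the 10 skin classes. It was higher in PG in all 6 classes present in both libraries, and the ranges of the libraries did not overlap. Free RNA held it at 84.7 CPM in PG and 4.27 CPM in skin, so the free RNA of each library differed in the same direction as its cells. As *Gstp1* and *Gstp2* share most of their 3′ ends, the counts of the pair are uncertain. *Gstp2* was at 22.1 CPM in PG fibroblasts and at most 6.94 CPM in the other classes of at least 40 cells. The 17 PG T cells had 38.1 CPM of it, from 1 UMI. *Gstp3* was highest in T cells, at 94.0 CPM in skin and at 381 CPM in the 17 PG T cells, and then at 40.1 CPM in the upper follicle and duct of PG.

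*Gsta3*, an alpha-class transferase (chr1:21240589-21265661, plus strand) whose promoter window is printed above, was at 277 CPM in PG basal cells, 208 CPM in PG sebocytes and 92.6 CPM in skin sebocytes. In the other skin classes it stayed between 0 and 3.64 CPM, skin basal cells included at 2.85 CPM. Skin sebocytes were thus the single skin class with an appreciable level, from 17 UMIs. *Gsta4*, whose product handles 4-hydroxynonenal, a main aldehyde of lipid peroxidation, was at 120.3 CPM in the upper follicle and duct of PG, 41.9 CPM in PG sebocytes and at most 10.9 CPM in any skin class. This highest skin level was that of sebocytes, from 2 UMIs. *Gsta2* was found mainly in suprabasal keratinocytes of skin, at 87.4 CPM, and was at most 5.72 CPM in every other class.

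The mu-class genes were led by fibroblasts and upper follicle. *Gstm1* had 611 CPM in PG fibroblasts, 369 CPM in skin fibroblasts and 249 CPM in PG basal cells, against 67.3 CPM in PG sebocytes and 38.1 CPM in skin sebocytes. *Gstm2* had 233 CPM and 86.7 CPM in the fibroblasts and 126 CPM in PG basal cells, against 21.5 CPM and 10.9 CPM in sebocytes. The level in skin sebocytes was from 2 UMIs. *Gstm5* was instead highest in the upper follicle and duct, at 354 CPM in skin and 311 CPM in PG. The theta-class genes divided in another way, with *Gstt1* highest in fibroblasts (161 CPM in PG, 129 CPM in skin), *Gstt2* in endothelial cells (98.4 and 56.3 CPM) and *Gstt3* in PG sebocytes (99.7 CPM). In endothelial cells 3 counts stand for 32.8 CPM in PG and 15.4 CPM in skin. *Gstz1*, which acts in tyrosine breakdown, was highest in sebocytes of both libraries, at 151 CPM in PG and 87.2 CPM in skin, with 60.7 CPM in PG basal cells and at most 43.7 CPM elsewhere. *Gsto1* of the omega class was at 229 CPM in the upper follicle and duct of PG and 210.2 CPM in PG sebocytes. *Gstk1*, of mitochondria and peroxisomes, stayed at or below 48.6 CPM in every class.

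**Figure D3:**
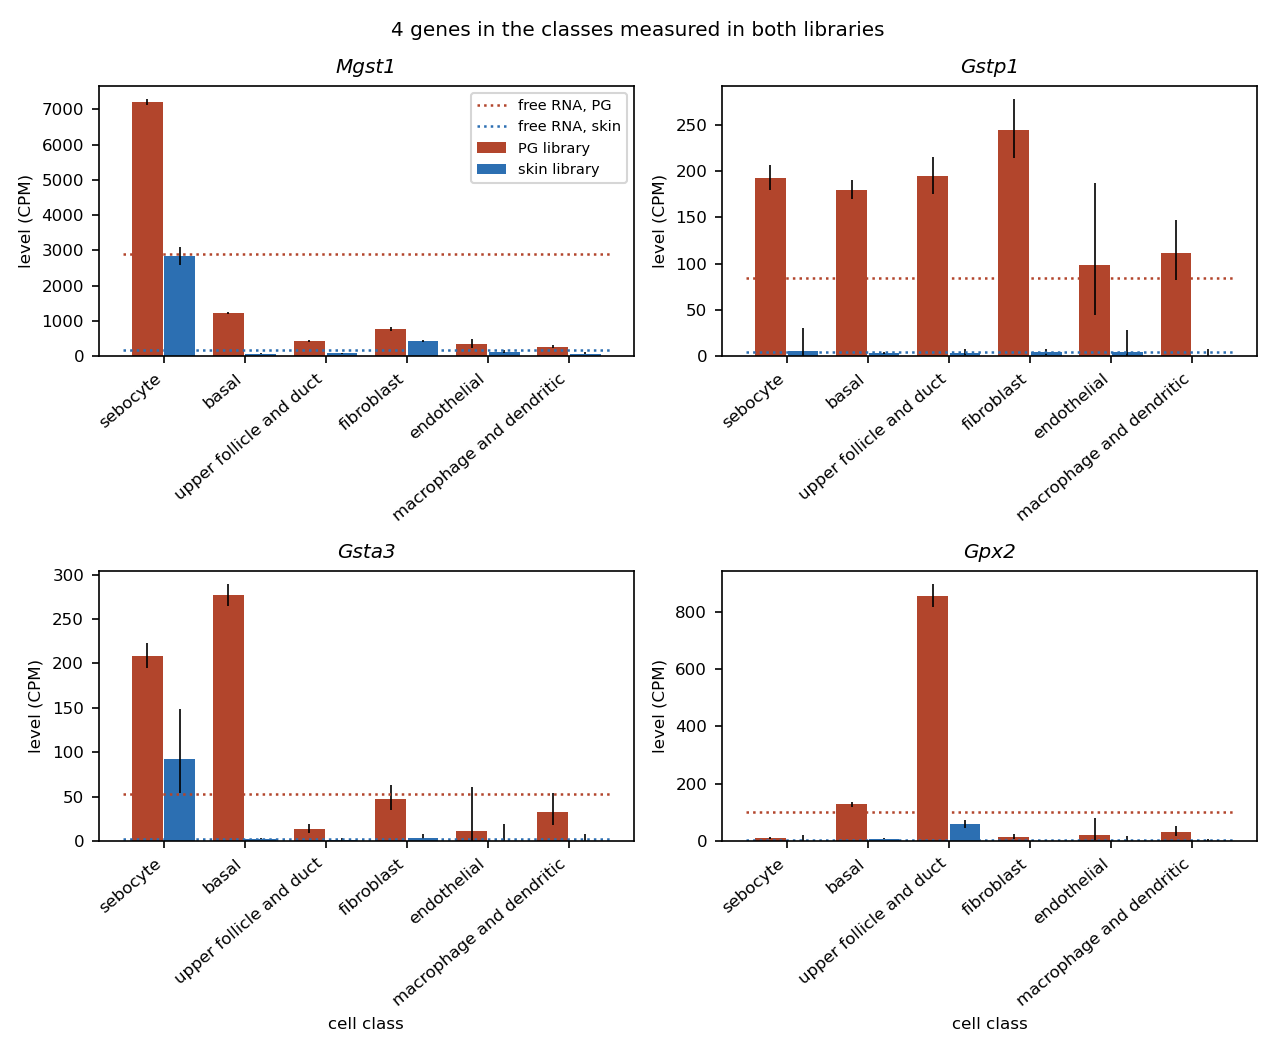
Level (CPM with 95% counting intervals) of *Mgst1*, *Gstp1*, *Gsta3* and *Gpx2* in the 6 classes found in both libraries, PG beside skin, with a dotted line at the level in free RNA of each library. *Gstp1* is near 0 in all skin classes, *Mgst1* is highest in sebocytes of both libraries, and *Gpx2* is highest in the upper follicle and duct of PG at 856 CPM.

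Among the peroxidases, *Gpx4* (chr10:80047166-80056439, plus strand) reduces peroxides within membrane lipids and guards cells against ferroptosis. It was at 1384 CPM in PG sebocytes, 1155 CPM in skeletal muscle cells, 997 CPM in skin sebocytes and 952 CPM in PG basal cells. Over the 6 PG classes its median was 798 CPM and its lowest level 474 CPM, in macrophages and dendritic cells. Among the other skin classes it lay between 147 CPM in suprabasal cells and 490 CPM in fibroblasts, with skin basal cells at 272 CPM. *Gpx1*, the main cytosolic peroxidase for hydrogen peroxide, was led by macrophages and dendritic cells, at 1587 CPM in PG and 590 CPM in skin, and in sebocytes it had 567 CPM in PG and 223 CPM in skin. *Gpx2*, known from gut epithelium, was at 856 CPM in the upper follicle and duct of PG and 59.1 CPM in the upper follicle and duct of skin. In basal cells it was at 128 CPM in PG and 7.53 CPM in skin. It was at 11.0 CPM in PG sebocytes and 0 in skin sebocytes, where the floor of 3 counts stands for 16.3 CPM. Free RNA of PG held 100.1 CPM of it. Fibroblasts led the remaining peroxidases. *Gpx3*, which encodes the secreted plasma form, had 1370.5 CPM in skin and 884 CPM in PG fibroblasts and at most 77.0 CPM in any other class. The endoplasmic reticulum forms *Gpx7* and *Gpx8* had 74.8 and 126 CPM in PG fibroblasts and 56.1 and 80.0 CPM in skin fibroblasts.

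Among the aldehyde dehydrogenases, *Aldh2* (chr5:121566027-121593824, minus strand), the mitochondrial enzyme that clears acetaldehyde, was the most abundant. It had 914 CPM in PG sebocytes and 382 CPM in PG basal cells, and 239.8 CPM in skin sebocytes, 219 CPM in skin fibroblasts and 113 CPM in skin basal cells. The genes for fatty aldehydes were partly apart from it. *Aldh3a2*, the fatty aldehyde dehydrogenase lost in Sjögren-Larsson syndrome, had 237 CPM in PG sebocytes, 27.2 CPM in skin sebocytes and at most 54.6 CPM elsewhere. *Aldh3b2*, whose product acts on fatty aldehydes at lipid droplets, had 78.2 CPM in suprabasal cells of skin, 65.4 CPM in skin sebocytes, 64.1 CPM in PG sebocytes and 1.82 CPM in PG basal cells. *Aldh3a1*, abundant in the cornea, was highest in PG basal cells at 376 CPM and had 109 CPM in skin sebocytes, 97.8 CPM in PG sebocytes and 58.2 CPM in skin basal cells.

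The retinaldehyde dehydrogenases were led by fibroblasts, hair matrix and muscle. *Aldh1a3* had 129 CPM in skin fibroblasts, 104 CPM in PG fibroblasts and 85.2 CPM in hair matrix cells. *Aldh1a1* had 80.0 and 73.8 CPM in skin and PG fibroblasts and 139 CPM in skeletal muscle cells. *Aldh1a2* had 49.5 CPM in PG fibroblasts and 1.56 CPM in skin fibroblasts. In sebocytes these 3 genes ranged from 0 to 5.45 CPM. *Aldh1a7*, a close relative of *Aldh1a1*, was at 27.2 CPM in skin sebocytes from 5 UMIs in 5 of the 40 cells, and at 0.975 CPM in PG sebocytes. Of the genes for amino acid and carnitine metabolism, *Aldh6a1* (valine breakdown) had 93.2 CPM in PG and 81.7 CPM in skin sebocytes, *Aldh9a1* (carnitine synthesis) 66.6 and 38.1 CPM, and *Aldh4a1* (proline breakdown) 41.0 and 5.45 CPM. The skin level of *Aldh4a1* was 1 UMI, below the floor of 16.3 CPM for 3 counts. *Aldh7a1* (lysine breakdown) was highest in skin fibroblasts at 58.2 CPM. *Aldh3b1* was highest in macrophages and dendritic cells, at 20.8 CPM in PG and 22.1 CPM in skin, and *Aldh18a1* (proline synthesis) and *Aldh16a1* were highest in hair matrix cells, at 20.3 and 25.7 CPM.

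Pairs of classes were then compared. A gene entered a comparison when it had 20 CPM in either class, and it is called higher or lower only where the whole 95% interval of its ratio lay past 2-fold. A gene below 20 CPM in the other class could only be called higher in the class through which it entered. Beside each count of members stands the share of all genes called by the same rule, and the median of the members stands beside the median of all genes as a description. The same shares are the background for the counts from a list of other pathway genes, given after the members.

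PG and skin sebocytes were compared to see whether the gland cells of the 2 tissues carried the same set. The pools differed in stage. Early sebocytes, which still held basal markers above the limit, were 24 of the 40 cells in skin and 234 of the 745 in PG. The part of stage in the ratios was not tested. Of the 27 members compared, 5 were higher in PG sebocytes, where 2.62% of all 6291 genes were, and 1 was lower, where 7.82% of all genes were. The median log2 ratio of the 27 was 0.82 against -0.20 for all genes. Higher in PG were *Gstp1* by 5.15 on the log2 scale (2.66 to 10.45, from 791 UMIs against 1), *Gstt3* by 3.19 (1.33 to 6.24, 409 UMIs against 2), *Aldh3a2* by 3.12 (1.89 to 4.75, 972 UMIs against 5), *Aldh2* by 1.93 (1.5 to 2.39) and *Mgst1* by 1.35 (1.22 to 1.47). Lower in PG was *Aldh1a7*, with a log2 ratio of -4.80 (-7.14 to -2.59), from 4 UMIs against 5. For *Gpx4* the ratio was 0.47 (0.26 to 0.69), for *Aldh3b2* -0.03 (-0.86 to 0.94) and for *Mgst3* -0.31 (-0.78 to 0.20), so a difference past 2-fold lay outside all 3 intervals. Among the genes left uncalled with intervals reaching past 2-fold were *Gsta3* at 1.17 (0.48 to 1.96), *Gpx1* at 1.34 (0.90 to 1.83) and *Gsto1* at 1.81 (0.96 to 2.82). The 40 skin sebocytes set the width of these intervals, and 3 counts among them stand for 16.3 CPM, against 0.732 CPM in PG sebocytes. The intervals of *Mgst1*, *Aldh2* and *Gstt3* no longer lay wholly past 2-fold when the sebocytes were taken from clusters (14 in skin, log2 ratios of 0.68, 1.31 and 2.98), where 6 members were called, 3 of them the same, and of the 6 calls *Mgst1* alone was past it in thinned cells.

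**Figure D4:**
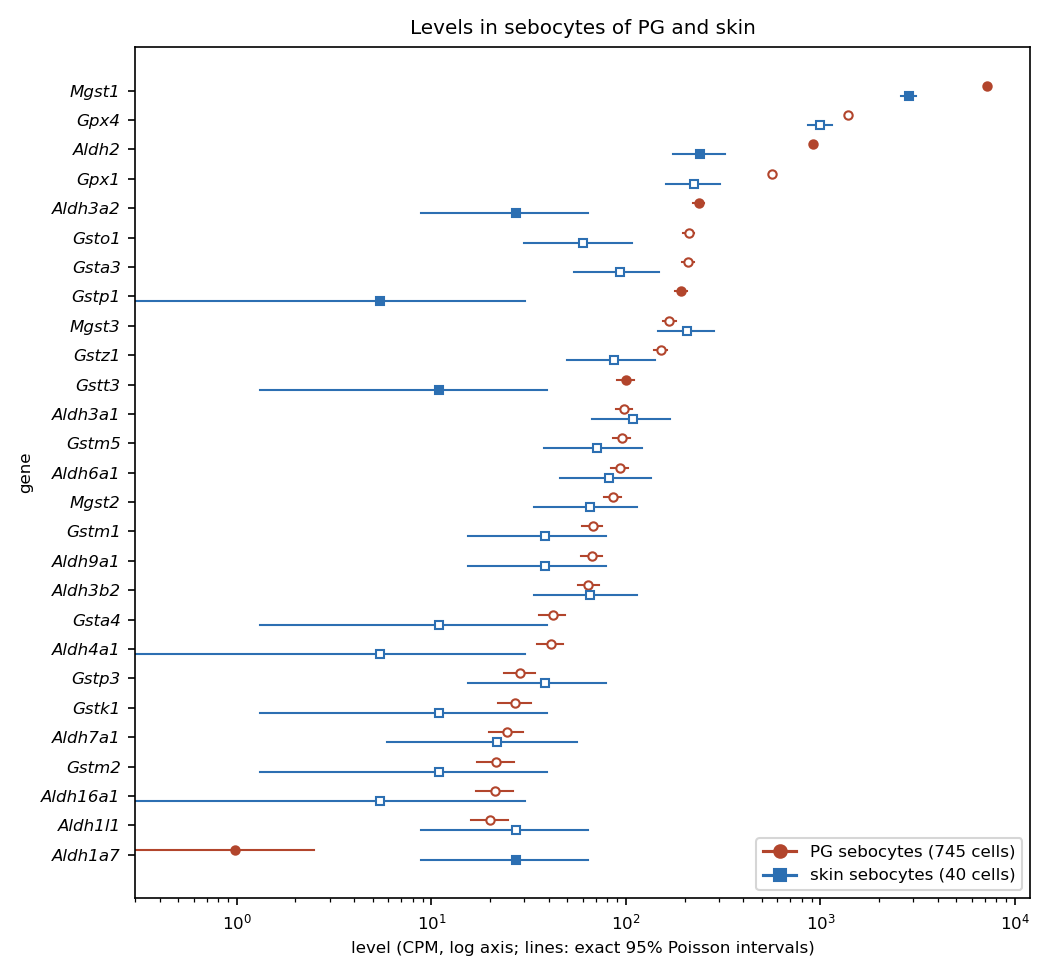
Level (CPM, log axis) of the 27 members compared in PG and skin sebocytes, with 95% counting intervals and filled points for the genes called. PG intervals are narrow and skin intervals wide. *Gstp1*, *Gstt3*, *Aldh3a2*, *Aldh2* and *Mgst1* lie higher in PG and *Aldh1a7* higher in skin.

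Of a list of 66 other genes of glutathione, thioredoxin, alcohol and aldehyde metabolism, 43 could be compared in sebocytes, of which 5 were higher and 3 lower in PG. Of all 6291 genes, 2.62% were higher and 7.82% lower. The higher ones were *Gclm*, the modifier subunit of the enzyme that makes glutathione (460 against 114 CPM), the alcohol dehydrogenase *Adh1* (820 against 32.7 CPM), the aldehyde reductase *Akr1a1* (334 against 87.2 CPM), the carbonyl reductase *Cbr2* (321 against 32.7 CPM) and *Far1*, which reduces fatty acyl-CoA to fatty alcohol (299 against 10.9 CPM). In skin sebocytes 3 counts stand for 16.3 CPM, so *Far1* lay below this floor there, and *Adh1* and *Cbr2* lay near it. *Sod1*, the cytosolic superoxide dismutase, was lower (117 against 414 CPM), as was *Cbr3* (25.4 against 109 CPM). The other lower gene, *Far2*, was 1 of the markers that defined sebocytes, and its difference is not read as a result.

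Sebocytes and basal keratinocytes of PG were compared as gland cells against keratinocytes of the same library. Basal cells of either library had at least 20 basal marker UMIs per 10000 and passed the limit of no other class. Which kinds of keratinocyte this class includes was not tested. Of 27 members compared, 7 were higher in sebocytes (5.35% of all 5904 genes) and 5 were lower (8.15% of all genes), with a median log2 ratio of 0.10 against -0.08 for all genes. The fatty aldehyde genes *Aldh3b2* and *Aldh3a2* were higher by 5.14 (4.31 to 6.11) and 2.25 (2.07 to 2.43), *Mgst1* by 2.55 (2.51 to 2.59), *Gstp3* by 1.63 (1.17 to 2.10), *Gstz1* by 1.32 (1.13 to 1.5), *Gstt3* by 1.28 (1.05 to 1.5) and *Aldh2* by 1.26 (1.19 to 1.33). Lower were *Gpx2* at -3.54 (-4.01 to -3.11), *Gstm2* at -2.55 (-2.88 to -2.23), *Aldh3a1* at -1.94 (-2.10 to -1.79), *Gstm1* at -1.89 (-2.08 to -1.70) and *Gpx8* at -1.79 (-2.32 to -1.30). Free RNA made an estimated 3.99% of the UMIs of PG basal cells (3.53% in skin basal cells), the lowest estimate over the marker lists of other classes. *Mgst1* was higher in sebocytes by 2.65 once free RNA was subtracted at such estimates from both classes. In the pathway list, 8 of 42 genes were higher and 3 lower. Higher were the NADPH-producing enzymes *Me1* (502 against 147 CPM), *Idh1* (284 against 73.2 CPM), *Pgd* (157 against 68.8 CPM) and *G6pdx* (59.5 against 21.8 CPM), with catalase, *Cat* (430 against 98.2 CPM), *Glrx*, *Cbr1* and *Far1*. Lower were *Prdx4* (39.7 against 113 CPM), *Nqo1* (5.12 against 23.6 CPM) and *Adh7* (181 against 441 CPM).

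In skin, 9 of 22 members compared were higher in sebocytes than in basal keratinocytes (6.36% of all 6461 genes) and 0 were lower (3.23% of all genes), and the median log2 ratio was 1.17 against 0.13 for all genes. *Mgst1* was higher by 5.23 (5.07 to 5.39), *Gsta3* by 5.02 (4.08 to 5.92, 17 UMIs against 31), *Gstp3* by 5.0 (3.43 to 6.43, 7 UMIs against 13), *Aldh1a7* by 4.13 (2.33 to 5.62, 5 UMIs against 17) and *Aldh1l1*, a folate enzyme, by 3.96 (2.19 to 5.43, 5 UMIs against 19). *Gstz1* was higher by 2.95 (2.10 to 3.71), *Aldh6a1* by 2.13 (1.27 to 2.89), *Mgst2* by 2.01 (1.03 to 2.85) and *Gpx4* by 1.88 (1.65 to 2.09). *Mgst1*, *Gstz1* and *Gstp3* were called higher in sebocytes of both libraries. For *Gsta3* the PG ratio of sebocytes to basal cells lay on the other side of 0, with 208 against 277 CPM, and for *Mgst1* the ratios stand side by side as 2.55 in PG and 5.23 in skin. The difference between the libraries' ratios was not tested. In the pathway list 12 of 42 genes were higher and 1, the prostaglandin E synthase gene *Ptges*, was lower. Among the higher ones were *Me1* (180 against 11.0 CPM), *Idh1* (218 against 34.7 CPM), *Pgd* (147 against 15.9 CPM), *Cat* (163 against 25.6 CPM) and *Cbr1* (207 against 23.0 CPM), all of them also called higher in PG sebocytes, and *Far2*, a marker of the class.

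**Figure D5:**
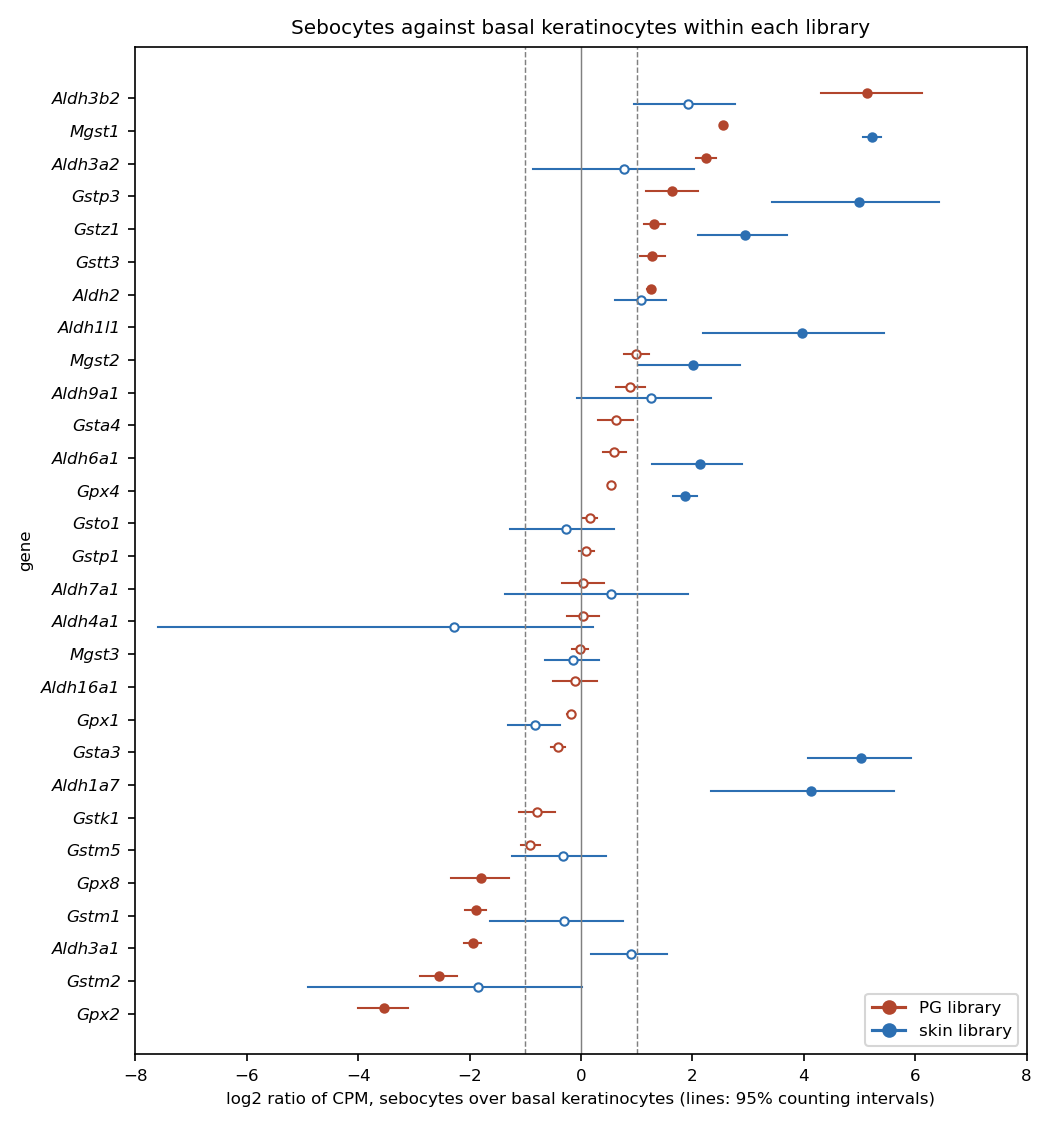
Log2 ratio of sebocytes to basal keratinocytes for each member compared, with 95% counting intervals, PG beside skin. Filled points are called, and dashed lines mark 2-fold. *Mgst1* lies to the right of the line in both libraries, and *Gpx2*, *Gstm2*, *Aldh3a1*, *Gstm1* and *Gpx8* lie to the left in PG.

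Differentiated and early sebocytes of PG, 511 and 234 cells were told apart by the level of basal markers that remained. By that rule basal markers had a median of 31 per 10000 UMIs in early and 10.3 in differentiated cells. Of 28 members compared, 0 were higher in differentiated sebocytes (0.109% of all 5519 genes) and 5 were lower (2.05% of all genes), with medians of -0.07 and -0.10. The 5 are the genes that were also lower in sebocytes than in basal cells, a direction that the split by basal markers favours for any gene higher in basal cells. They were *Gpx2* at -2.80 (-3.86 to -1.83), *Aldh3a1* at -2.26 (-2.56 to -1.96), *Gstm2* at -2.17 (-2.83 to -1.52), *Gpx8* at -2.03 (-3.04 to -1.04) and *Gstm1* at -1.40 (-1.75 to -1.05). *Mgst1* had 5098 CPM in early and 7960.5 CPM in differentiated cells, a log2 ratio of 0.64 (0.60 to 0.69), and *Gstz1* a ratio of 0.81 (0.50 to 1.12), neither past 2-fold. The number of calls was 1 in thinned cells, 2 with Leiden clusters, and 3 each with doubled gate limits, a mitochondrial share of at most 5% or trimmed mean scaling. Of 39 pathway genes 1 was lower, *Far1* (183 against 629 CPM). In the 16 differentiated and 24 early sebocytes of skin *Mgst1* had 2573 CPM (2166 to 3034) and 2952 CPM (2663 to 3264). By these classes PG and skin lay closer in early cells (5098 against 2952 CPM) than in differentiated cells (7960.5 against 2573 CPM). The early class changed with the gate. Skin early cells numbered 6 with Leiden clusters, 6 with doubled gate limits and 23 without the highest doublet scores. PG early cells numbered 119, 11 and 215. Median UMIs were 4877.5 in early and 2934 in differentiated cells of skin, against 3922.5 and 5810 in PG. The part of mixed cells in these levels was not tested. The *Mgst1* call between PG and skin sebocytes is for both stages pooled.

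Suprabasal keratinocytes of skin, with at least 250 suprabasal marker UMIs per 10000, were compared with the basal keratinocytes of skin. The basal class may hold follicle cells beside those of the epidermis. Differentiation and site therefore cannot be told apart in these ratios. Of 14 members compared, 3 were higher in suprabasal cells (7.82% of all 5898 genes) and 3 lower (8.48% of all genes), with a median of -0.47 against -0.13 for all genes. Higher were *Gsta2* by 4.68 (4.20 to 5.21), *Aldh3b2* by 2.19 (1.94 to 2.44) and *Mgst2* by 1.42 (1.15 to 1.71). Lower were *Gstm2* at -2.34 (-2.81 to -1.91), *Gstm1* at -1.62 (-1.95 to -1.30) and *Mgst1* at -1.36 (-1.60 to -1.13). *Mgst1* was thus lower in suprabasal cells and higher in sebocytes than in the same basal cells, while *Mgst2* and *Aldh3b2* stood above basal cells in both, with *Aldh3b2* at 65.4 against 17.2 CPM not called in skin sebocytes. The *Gsta2* call is uncertain because of its near-identical copies. In the pathway list 6 of 38 genes were higher and 6 lower. *Ggct*, of glutathione breakdown (669 against 97.2 CPM), *Prdx5* (1431 against 249 CPM) and the prostaglandin D synthase gene *Hpgds* (74.3 against 4.87 CPM) were among the higher, and glutathione reductase, *Gsr* (10.1 against 32.7 CPM), and *Sod1* (25.6 against 83.7 CPM) among the lower. Scaled without mitochondrial, ribosomal and the 50 most abundant genes, 3 were higher and 6 lower, and with trimmed mean scaling 3 and 2.

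Hair matrix cells, with inner root sheath cells in the same class, were compared with the same basal cells. Of 15 members 3 were higher (8.29% of all 6393 genes) and 4 were lower (12.3% of all genes), with a median of -0.44 against 0.27 for all genes. Higher were *Aldh1a3* by 4.54 (4.06 to 5.05), *Mgst1* by 2.70 (2.58 to 2.82) and *Aldh18a1* by 1.64 (1.14 to 2.13). Lower were *Aldh3a1* at -4.50 (-5.64 to -3.57), *Gstm1* at -3.27 (-4.07 to -2.58), *Gstm2* at -2.78 (-3.50 to -2.13) and *Gpx1* at -1.43 (-1.57 to -1.30). *Gstm1* and *Gstm2* were called lower in suprabasal cells too, against the same basal cells, but not in skin sebocytes, where their ratios were -0.30 (-1.62 to 0.75) and -1.85 (-4.90 to 0.01). Of 38 pathway genes 4 were higher and 9 lower, with thioredoxin reductase, *Txnrd1* (212 against 75.2 CPM), and *G6pdx* (48.6 against 6.34 CPM) among the higher and *Cat* (6.86 against 25.6 CPM) and *Adh7* (3.43 against 101 CPM) among the lower. Scaled without the abundant genes 3 were higher and 7 lower, and with trimmed mean scaling 2 and 4.

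Basal keratinocytes of the 2 tissues were compared as the class with the most cells in both. Of 25 members compared, 17 were higher in PG (11.3% of all 6391 genes) and 0 were lower (11.4% of all genes), with a median of 1.68 against 0.05 for all genes. The widest ratios were those of *Gsta3* at 6.60 (6.09 to 7.17, 97.3-fold), *Gstp1* at 5.62 (5.16 to 6.11), *Gsta4* at 4.63 (3.79 to 5.61), *Gpx2* at 4.08 (3.76 to 4.43) and *Mgst1* at 4.02 (3.92 to 4.13, 16.3-fold). The remaining calls were *Gstk1*, *Aldh3a1*, *Gstz1*, *Gstm1*, *Gpx4*, *Aldh2*, *Aldh6a1*, *Gstm2*, *Aldh3a2*, *Gstt3*, *Mgst2* and *Gsto1*, with log2 ratios from 2.77 down to 1.39. Of the 8 not called, *Mgst3* was the one on the other side of 0, at -0.44 (-0.54 to -0.33), and *Gpx1* had 0.69 (0.63 to 0.76). The count of 0 lower covers the compared members only, as members below the entry level in both classes could not be called. Among these, *Aldh3b2* had 1.82 CPM in PG and 17.2 CPM in skin basal cells (12 against 187 UMIs). Some went the other way, such as *Aldh1l2* with 6.51 CPM in PG and 0.459 CPM in skin basal cells (43 against 5 UMIs). PG basal cells held more sebocyte marker transcripts than skin basal cells, as given above. The part of this in the ratios was not tested. In the pathway list 19 of 45 genes were higher in PG and 4 lower. *Gclm* (545 against 48.9 CPM), *Gclc*, the catalytic subunit (91.1 against 30.7 CPM), *Nqo1* (23.6 against 8.26 CPM) and *Hmox1* (20.7 against 3.86 CPM) were among the higher, as were *Adh1* (582 against 0.735 CPM) and *Cbr2* (622 against 34.1 CPM). *Bach1*, a transcriptional repressor gene (14.2 against 61.7 CPM), *Ggct*, *Abcc5* and *Ptges* were lower.

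Fibroblasts of the 2 tissues were compared as the largest class outside the epithelium in both. Of 28 members compared, 8 were higher in PG (4.19% of all 6509 genes) and 0 were lower (2.37% of all genes), with a median of 0.79 against 0.00 for all genes. *Gstp1* was higher by 5.88 (4.88 to 7.11), *Gstp2* by 5.41 (2.78 to 10.78, 21 UMIs against 1), *Aldh1a2* by 4.99 (3.36 to 7.32, 47 UMIs against 3) and *Gsta3* by 3.71 (2.55 to 5.10), followed by *Aldh3a1*, *Gstk1*, *Gpx1* and *Gstm2* with ratios from 2.42 down to 1.42. Among the genes not called, *Gpx3* had a ratio of -0.63 (-0.75 to -0.52), *Aldh1a3* -0.30 (-0.66 to 0.04), *Aldh1a1* -0.12 (-0.55 to 0.30), *Gstt1* 0.32 (0.02 to 0.62) and *Gpx7* 0.42 (-0.04 to 0.86), so a difference past 2-fold lay outside all of these intervals. *Mgst1* had 0.85 (0.71 to 1.0). In the pathway list 4 of 44 genes were higher in PG and 0 lower. These were *Gclm* (179 against 36.9 CPM), *Ltc4s*, the leukotriene C4 synthase gene (31.6 against 2.08 CPM), *Adh1* (281 against 31.7 CPM) and *Cbr2* (65.3 against 3.12 CPM). *Gstp1*, *Gclm*, *Adh1* and *Cbr2* were called higher in PG in sebocytes, basal cells and fibroblasts alike. These comparisons share the same pair of libraries.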

How the data were processed

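Cells were measured by 3′ single-cell RNA sequencing. Per the labels and methods, the authors aligned reads to mm10 with Cell Ranger 4, and they deposited whole-number counts of UMIs per gene and barcode, unfiltered and not normalized. Kept barcodes had at least 500 genes, 1000 UMIs and at most 10% mitochondrial UMIs (232 skin and 662 PG barcodes were removed by the last). Cells were classed by summed markers per 10000 UMIs, with at least 15 for sebocytes, 3 of their markers and 1 UMI of a restricted marker, and in a fixed order from basal to specialised classes. Cells over limits of unlike classes (81 in PG, 161 in skin) were set aside as mixed, and 251 and 524 passed none. No other doublet removal was made, except as an alternative. Counts were summed per class. Intervals of CPM are exact Poisson and those of ratios exact binomial (95%). Genes were named if they reached 20 CPM in a class of at least 40 cells. Members and lists were chosen with earlier results of these data known, and limits were set after counts were seen. The sebocyte limit was lowered to 15 after cell numbers were seen, which gave 40 skin sebocytes. *Krt85* was not used, leaving 12 of 13 hair matrix markers. The script was tested on simulated data. Python 3.11.15, numpy 2.4.6, scipy 1.17.1, pandas 2.3.3, scanpy 1.11.5 and leidenalg 0.10.2 were used. Alternatives changed filters, doublets, gate, Leiden clusters, free RNA, scaling, thinning, minimum level and fold.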

Additional observations from a re-analysis of the deposited data

How the results depend on the processing

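With 1 library per tissue, all limits beyond counting error are unknown. Of 112 recomputed counts of called members, 92 stayed within 1.5 times the main count and 20 did not. The 70 calls gave 761 recomputed single ratios, of which 697 were called again, 64 were no longer called and 0 changed direction. Ratios were left out of the 761 where a setting left either class without a UMI of the gene. With cells thinned to 1000 UMIs, the counts were 1 of 6 between PG and skin sebocytes, 7 of 12 between sebocytes and basal cells of PG, 4 of 9 in skin, and 1 of 5 between differentiated and early sebocytes. With 4-fold in place of 2-fold they were 2 between PG and skin sebocytes, 5 between sebocytes and basal cells of PG, 0 between differentiated and early sebocytes, 1 of 6 between suprabasal and basal cells, 9 of 17 between PG and skin basal cells and 4 of 8 between PG and skin fibroblasts. With at least 100 CPM they were 2 between sebocytes and basal cells of skin, 2 between differentiated and early sebocytes, 0 between suprabasal and basal cells, 2 of 7 between hair matrix and basal cells, 10 between basal cells and 3 between fibroblasts of the tissues. These settings leave fewer UMIs, a stricter limit or fewer genes. The count between differentiated and early sebocytes was also 3 at a mitochondrial share of at most 5%, 2 with Leiden clusters, 3 with doubled gate limits and 3 with trimmed mean scaling, and the cause was not tested. Trimmed mean scaling moved the median log2 ratio of all genes by 0.35 between PG and skin sebocytes, 0.17 and -0.24 between sebocytes and basal cells of PG and skin, 0.18 between differentiated and early sebocytes, 0.27 in suprabasal cells and -0.20 in hair matrix cells, and by under 0.1 in the other comparisons. Subtracting free RNA left all 8 counts and the same members. The share subtracted was the lowest estimate over the marker lists of other classes, and a larger share was not tested. No paired analysis was possible because each tissue has 1 library.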
